A study of Mus musculus with 24 samples.

Results

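The livers of mice fed 0.5% quercetin were set against the livers of mice fed the control diet. The comparison holds 12 of the 24 arrays of the series, chosen by the diet in their titles, with 6 arrays of the 0.5% group and 6 of the control group. It was made across 18193 genes, with 1 probe set for each gene, that of highest mean level across all 24 arrays. All mice were males of the BALB/c strain. They were obtained at 6 weeks of age, kept for a week on a nonpurified diet and then fed for 14 days. The 0.5% group ate AIN93G, a purified rodent diet, with 0.5% quercetin. The groups at 0.1% and 1.0% quercetin ate the same diet with those amounts, and the control group ate AIN93G alone. The animals were housed 3 per cage with the dark period by day. Which mice shared a cage is not used here, and cage and diet cannot be told apart. Total RNA of each liver was labelled with biotin and hybridized to 1 Affymetrix expression array per mouse. The comparison asks which liver transcripts differed between this diet and the control diet.

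Quercetin is a flavonol of many fruits and vegetables. Absorbed quercetin reaches the liver, where it is methylated, sulfated and glucuronidated before it leaves in bile and blood. The liver also makes heme for its cytochrome P450 enzymes, secretes most plasma proteins, and answers growth hormone and cytokines through STAT transcription factors. Genes of the SOCS family are switched on by STATs and damp the same signals.

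A level below is a normalized log2(intensity + 1) value of 1 probe set, and a difference is the 0.5% mean minus the control mean on that log2 scale. Each difference has its standard error (SE) from limma, fitted over all 24 arrays. A gene is said to have risen or fallen only where its Benjamini-Hochberg adjusted p was under 0.05. A level under 5 is called dim. The gene lists below were chosen with earlier results of these data known, and some lists share members. Their counts and medians therefore describe the data and are not independent support. The precision is limited by the 6 arrays in each group.

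Array medians of the deposited linear intensities, over all probe sets, ran from 5.79 to 6.99 in the 0.5% group and from 4.78 to 7.58 in the control group. The level of the 3′ probe set of Gapdh minus that of its 5′ probe set, a sign of RNA quality, ranged from -0.45 to -0.26 in the 0.5% group and from -0.49 to -0.24 in the control group. The 18S ribosomal RNA probe set stood at 10.73 in replicate 1 of the 0.5% group, against 8.43 or less in the control arrays. In the same array the 3′ minus 5′ value of Actb was 1.33, against 1.04 or less in the control arrays. Without that array 2 genes passed against control, Arid5b and Carlr, and Alas1 did not. Its part in the list results below is not given. On the first principal component, which held 9.15% of the variance, 4 arrays stood more than 5 scaled median absolute deviations from the median of all arrays. They were replicates 4 and 6 of the 0.5% group and replicates 4 and 5 of the 1.0% group. Results are therefore also given without those 4 arrays. All 9 hepatocyte markers measured were bright: Alb, the serum albumin gene, ranged from 13.10 to 13.15 in the 0.5% group and from 13.11 to 13.25 in the control group. Hnf4a, a hepatocyte transcription factor gene, differed by 0.37 (SE 0.17), and by 0.12 without the 4 arrays apart. The mean level of these markers was 12.21 to 12.40 in the 0.5% group and 12.23 to 12.35 in the control group. In whole liver RNA, fewer cells of a type and less RNA per cell cannot be told apart.

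Few single genes passed. Against control, 3 of 18193 genes (0.0165%) had an adjusted p under 0.05 in limma. Of these, 2 rose (0.011%), namely Arid5b and Alas1, and 1 fell (0.0055%), namely Carlr. An unadjusted p under 0.05 was reached by 1392 genes (7.65%), 681 of them as higher (3.74%) and 711 as lower (3.91%). All 6 arrays of the 0.5% group lay above all 6 control arrays for 35 genes (0.192%) and below them for 48 (0.264%). The median difference over all genes was -0.02, and 46.6% of genes had a difference above 0. Among the 6547 genes bright in at least 1 group, the median was -0.03 and 41.3% had a difference above 0. Of those bright genes, 4.15% were higher and 5.61% lower at an unadjusted p under 0.05. Leaving out the 4 arrays apart gave 1 gene that passed, the glycogen-targeting gene Ppp1r3c, which was not among the 3, beside 933 at an unadjusted p under 0.05.

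**Figure D1:**
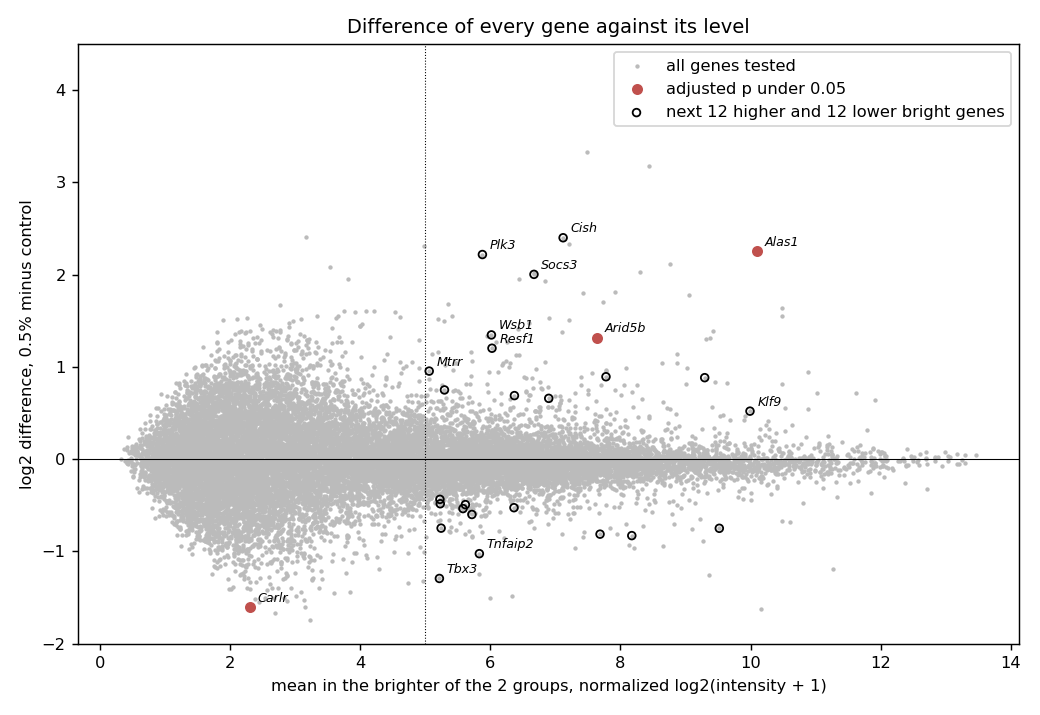
Each point is 1 of 18193 genes. The x axis is the mean level in the brighter of the 2 groups (normalized log2(intensity + 1), dotted line at 5) and the y axis the log2 difference, 0.5% minus control. Red points passed an adjusted p of 0.05 and open circles are the next 12 higher and 12 lower bright genes by p, clone names left out. Arid5b at 1.31 and Alas1 at 2.25 lie among bright genes, and Carlr lies among dim ones.

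Arid5b rose 2.49-fold. It encodes a DNA-binding protein with an AT-rich interaction domain. Its level was 7.04 at the lowest, 7.76 at the median and 8.07 at the highest in the 0.5% group, against 6.10, 6.27 and 6.68 in the control group. No array of the 0.5% group was as low as the highest control array. The difference was 1.31 (SE 0.20, adjusted p = 0.0199). It was 1.29 without the 4 arrays apart (SE 0.22), where the adjusted p was 0.12. Over 24 fits that each left out 1 array, its adjusted p ran from 0.00473 to 0.0956 and was under 0.05 in 20. Over 14 other settings it ran from 0.00104 to 0.695, under 0.05 in 9. Its other 4 probe sets were dim. They differed by 1.67 (SE 0.35), 1.23 (SE 0.51), 0.52 (SE 0.32) and, at a mean level of 1.27, by -0.19 (SE 0.43).

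Alas1 rose 4.77-fold. It encodes the mitochondrial enzyme that makes 5-aminolevulinate and sets the pace of heme synthesis in liver. Its lowest, median and highest levels were 8.73, 10.42 and 10.79 in the 0.5% group, against 7.18, 7.61 and 9.44 in the control group. The groups overlapped through control replicate 2 at 9.44, since the other control arrays stood at 7.72 or less. The difference was 2.25 (SE 0.39, adjusted p = 0.0464), and 1.95 (SE 0.39, adjusted p = 0.243) without the 4 arrays apart. Over the fits without 1 array its adjusted p ran from 0.00487 to 0.164 and was under 0.05 in only 8 of 24. Over 14 other settings it ran from 0.0111 to 0.259, under 0.05 in 9. Its other probe set differed by 1.64 (SE 0.33).

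No other gene of the heme pathway passed. Of 7 measured heme synthesis genes, 3 lay above control, Alas1 among them, with a list median of -0.07. Alad, which joins 2 molecules of 5-aminolevulinate, differed by -0.07 (SE 0.11) and Fech, which inserts the iron, by -0.08 (SE 0.07). Cpox differed by 0.16, Uros by 0.08, Urod by -0.09 and the dim Ppox by -0.19. The 4 heme breakdown genes had differences from -0.13 for Blvra, a biliverdin reductase gene, to -0.004 for the heme oxygenase gene Hmox1.

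Carlr, a long non-coding RNA, passed as lower with an adjusted p of 0.0464. Its highest level was 1.18 in the 0.5% group and 2.75 in the control group, so close to the floor that no size is given. The arrays did not overlap between groups, and with a pseudocount of 16 in place of 1 the call was lost. Over the fits without 1 array its adjusted p ran from 0.00553 to 0.149 and was under 0.05 in 12 of 24.

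**Figure D2:**
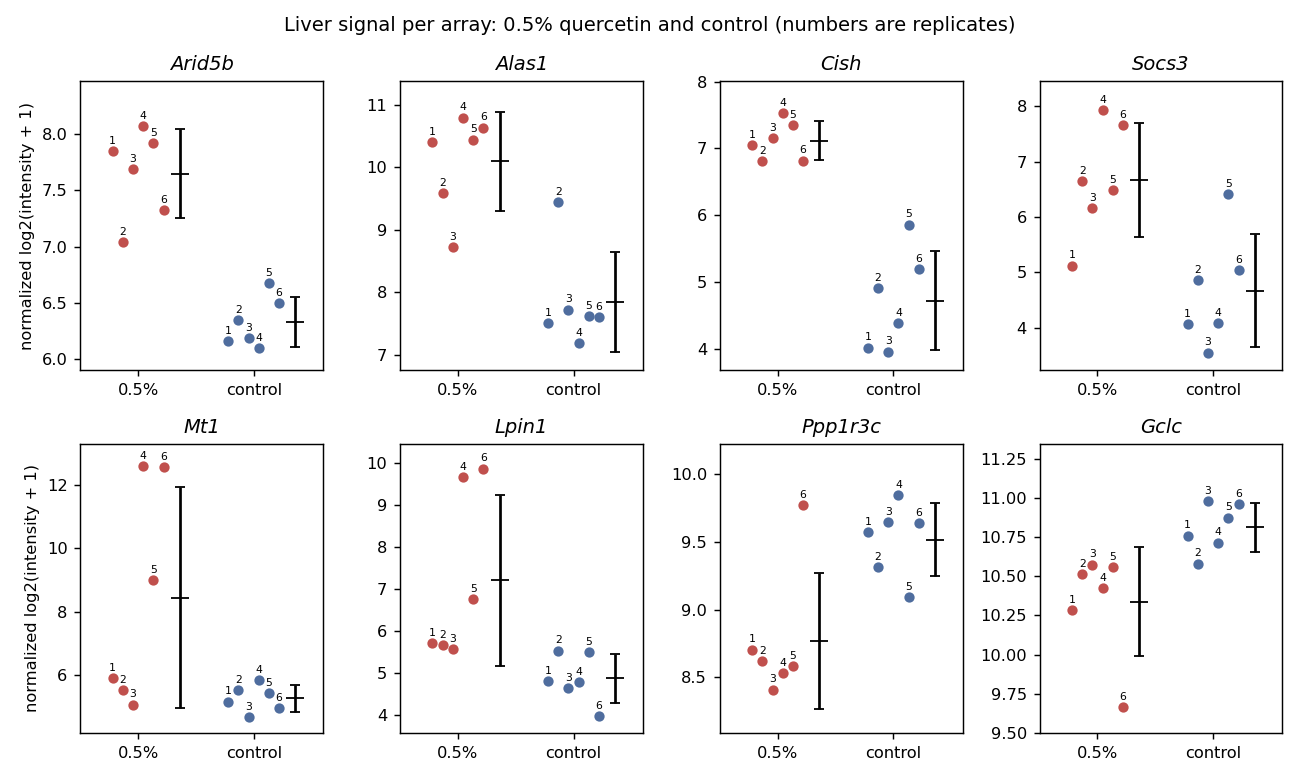
Level of 8 genes in each array (y axis, normalized log2(intensity + 1)), with the 0.5% group left in red and the control group right in blue. Numbers are replicates, and bars are the mean ± SD (n = 6). Arid5b and Cish do not overlap between the groups, Alas1 overlaps through control replicate 2, and Mt1 and Lpin1 are highest in replicates 4 and 6 of the 0.5% group.

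Genes of cytokine receptors and their signalling, with SOCS feedback inhibitors among them, had means above control. All 14 measured genes of the list of cytokine receptors and SOCS feedback had a difference above 0, with a list median of 0.47, beside 46.6% and -0.02 over all genes. None passed the adjusted test, 5 had an unadjusted p under 0.05 as higher and 0 as lower, beside 3.74% and 3.91% of all genes. Cish, which encodes a SOCS-family inhibitor induced through STAT5, stood at 6.81, 7.10 and 7.53 (lowest, median and highest) in the 0.5% group, against 3.96, 4.64 and 5.86 in the control group. No 0.5% array overlapped the control range. Its difference was 2.40 (SE 0.46, adjusted p = 0.0843), and 2.37 (SE 0.55, adjusted p = 0.41) without the 4 arrays apart.

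Socs3, which damps interleukin-6 type signals, stood at 5.12, 6.57 and 7.94 in the 0.5% group, against 3.55, 4.47 and 6.42 in the control group. The groups overlapped, through control replicate 5 at 6.42, and the 0.5% values were highest in replicates 4 and 6. The difference was 2.00 (SE 0.47, adjusted p = 0.269), and 1.44 without the 4 arrays apart. Its other 2 probe sets differed by 1.40 and 1.63. Socs2, a feedback inhibitor of the growth hormone receptor, stood at 5.89, 6.67 and 8.43 in the 0.5% group, against 3.81, 4.80 and 6.41 in the control group (difference 1.94, SE 0.61, adjusted p = 0.507). A further Socs2 probe set, dim at a mean level of 1.32, went the other way at -1.41. Bcl3, a nuclear partner of NF-kB subunits, differed by 1.13 (SE 0.42), with 7.70 and 8.17 in replicates 4 and 6 of the 0.5% group and 5.87 or less in the control group. The list median was 0.15 without the 4 arrays apart, and 11 of the 14 members lay above control.

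The promoter windows of Cish and Socs3 are shown because both genes are known STAT targets and stood above control together. The sequences are from RefSeq, build GRCm38.p6, and run from 250 bases before the annotated transcription start to 30 bases after it. Capitals mark matches to the STAT consensus TTCNNNGAA, whose reverse complement has the same letters. It has 1 or more matches in 7.83% of all 32851 mouse windows of this length. The Cish window lies on the plus strand at chr9:107296409-107296688, with matches at bases 1 to 9 and 12 to 20 after the start. A match to the heat shock core GAANNTTC at bases 7 to 14 overlaps both of them. The Socs3 window lies on the minus strand at chr11:117969337-117969616, with 1 match from base -154 to base -146 and no overlap with another motif searched. The windows of Bcl3, Pim3 and Onecut1 hold no match.
Cish: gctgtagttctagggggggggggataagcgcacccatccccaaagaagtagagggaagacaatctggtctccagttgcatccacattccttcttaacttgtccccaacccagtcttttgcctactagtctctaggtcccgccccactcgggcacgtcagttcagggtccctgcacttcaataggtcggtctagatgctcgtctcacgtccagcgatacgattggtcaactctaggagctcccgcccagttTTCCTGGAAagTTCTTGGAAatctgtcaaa
Socs3: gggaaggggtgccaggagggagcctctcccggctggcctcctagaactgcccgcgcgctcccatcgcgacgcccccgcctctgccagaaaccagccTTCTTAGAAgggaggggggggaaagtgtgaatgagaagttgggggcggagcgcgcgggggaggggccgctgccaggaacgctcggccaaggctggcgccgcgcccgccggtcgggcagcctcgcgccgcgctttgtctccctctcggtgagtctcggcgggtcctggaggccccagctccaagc

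In the list of growth hormone to STAT5 signalling no gene passed. Of 14 measured members, 9 lay above control with a median of 0.06. The receptor gene Ghr differed by -0.08 (SE 0.10), Jak2 by 0.03 and the hormone gene Igf1, a main STAT5 target, by 0.09 (SE 0.08). The transcription factor genes Stat5a and Stat5b differed by -0.34 and -0.32. Onecut1, a liver transcription factor gene known to respond to growth hormone, stood at 5.10, 6.54 and 7.28 in the 0.5% group, against 3.23, 4.39 and 5.67 in the control group. The groups overlapped, and the difference was 1.95 (SE 0.50, adjusted p = 0.373), or 1.72 without the 4 arrays apart. Igfbp2, a binding protein for insulin-like growth factors, differed by -0.38 (SE 0.15, adjusted p = 0.566).

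The next 12 bright genes on the higher side by p did not pass, with adjusted p from 0.0843 to 0.291. Cish and Socs3 are 2 of them. Mtrr, which reactivates methionine synthase, stood at 4.57, 5.12 and 5.53 in the 0.5% group, against 3.80, 4.12 and 4.43 in the control group, with no overlap (difference 0.95, SE 0.19, adjusted p = 0.125). Plk3, a stress-responsive polo-like kinase gene, stood at 5.03, 5.61 and 7.18 in the 0.5% group, against 1.37, 4.06 and 4.78 in the control group. The difference was 2.22 (SE 0.46), and control replicate 4 at 1.37 lay far below the other control arrays. Mcm10, a DNA replication factor gene, and Klf9, a zinc finger transcription factor gene induced by glucocorticoids, also had groups that did not overlap, at 0.88 (SE 0.20) and 0.52 (SE 0.12). The Mcm10 probe set used had a mean level of 8.67. Its other probe sets were dim, at 3.58 and 1.63, and differed by 0.70 (SE 0.27) and 0.14 (SE 0.51). Wdr45b, which acts in autophagy, differed by 0.89 (SE 0.22), with replicate 2 of the 0.5% group just under control replicate 6. Gpr146, which codes for a G protein-coupled receptor, differed by 0.66 (SE 0.15). Also in this group were the ubiquitin ligase subunit gene Wsb1 at 1.35, the retroelement silencing factor gene Resf1 at 1.20 and the secreted kinase gene Pkdcc at 0.75. For these 9 genes, all 6 arrays of the 0.5% group were above the mean of the control arrays. Their differences without the 4 arrays apart ran from 0.34 for Klf9 to 1.71 for Plk3.

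On the lower side the next 12 bright genes did not pass either, with adjusted p from 0.25 to 0.5. Sdr39u1, of the short-chain dehydrogenase family, stood at 4.54, 4.83 and 4.97 in the 0.5% group, against 5.01, 5.26 and 5.36 in the control group, with no overlap. Its difference was -0.44 (SE 0.10, adjusted p = 0.25). Tbx3, a T-box transcription factor gene of pericentral hepatocytes, stood at 2.77, 4.14 and 4.68 in the 0.5% group, against 4.65, 5.05 and 5.81 in the control group. The groups overlapped only slightly, the difference was -1.29 (SE 0.30, adjusted p = 0.269), and 2 of its 5 probe sets, the brightest, were lower at an unadjusted p under 0.05. Osgin1, a target of Nrf2, differed by -0.83 (SE 0.21), Tnfaip2, a TNF-induced gene, by -1.02 (SE 0.24) and the protein kinase D gene Prkd3 by -0.81 (SE 0.23). For Tnfaip2 another probe set differed by -0.99 (SE 0.21) and the one of largest variance, at a mean level of 1.71, by 0.52 (SE 0.51). All 3 were lowest in replicates 4 and 6 of the 0.5% group, and Prkd3 stood at 5.98 and 5.90 there and at 7.23 or more in the other 4 arrays of that group. The chromatin remodeller gene Chd2 differed by -0.48 with no overlap, and Pms1, of DNA mismatch repair, by -0.75. Nelfa, a subunit of the negative elongation factor, differed by -0.60, and Pdcd2l, Abhd18 and Tmcc1 by -0.49 to -0.54. The other probe set of Pdcd2l, at a mean level of 4.82, differed by 0.01 (SE 0.17).

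Ppp1r3c changed its call with the arrays used. It encodes the subunit that brings protein phosphatase 1 to glycogen. In the 0.5% group it stood at 8.41 to 8.71 in replicates 1 to 5 and at 9.77 in replicate 6, against 9.09 to 9.85 in the control group. With all arrays the difference was -0.75 (SE 0.20, adjusted p = 0.476). It fell without the 4 arrays apart, by 0.94 on the log2 scale (SE 0.14, adjusted p = 0.0428), and the groups did not overlap among the arrays left. Without replicate 6 of the 0.5% group alone its adjusted p was 0.0422, and over 14 other settings it ran from 0.0428 to 0.697. Its other probe set differed by -0.59 (SE 0.19).

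Metallothionein genes were far above control in part of the 0.5% group. Mt1, which encodes a small zinc-binding protein, stood at 12.60, 8.99 and 12.56 in replicates 4, 5 and 6 of the 0.5% group and at 5.07 to 5.91 in replicates 1 to 3, against 4.67 to 5.83 in the control group. The difference was 3.18 (SE 1.17, adjusted p = 0.555), and 1.11 (SE 0.67) without the 4 arrays apart. Mt2 was also high in replicates 4 to 6, with 12.01, 8.36 and 12.02 in replicates 4, 5 and 6 of the 0.5% group and 3.82 to 4.69 in the other 3, against 3.33 to 4.95 in the control group (difference 3.33, SE 1.31). The zinc importer gene Slc39a14 differed by 0.69 (SE 0.24), again highest in replicates 4 and 6. The metal-sensing factor gene Mtf1 differed by 0.25, the zinc exporter gene Slc30a1 by -0.01 and the manganese exporter gene Slc30a10 by -0.30 (SE 0.13). Of the 8 measured genes of this list 5 lay above control, with a median of 0.25 (0.09 without the 4 arrays apart), and none passed.

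The windows of Mt1 and Mt2 are shown because, of all listed genes, these had the widest range among the 0.5% arrays. They are drawn from the same source and span the same distances. Capitals mark matches, on either strand, to the core of the metal response element, written TGCACNC or TGCGCNC, which 24.1% of all windows hold. Both lie on the plus strand, Mt1 at chr8:94178839-94179118 with 3 matches and Mt2 at chr8:94172368-94172647 with 4. No match overlaps another motif searched.
Mt1: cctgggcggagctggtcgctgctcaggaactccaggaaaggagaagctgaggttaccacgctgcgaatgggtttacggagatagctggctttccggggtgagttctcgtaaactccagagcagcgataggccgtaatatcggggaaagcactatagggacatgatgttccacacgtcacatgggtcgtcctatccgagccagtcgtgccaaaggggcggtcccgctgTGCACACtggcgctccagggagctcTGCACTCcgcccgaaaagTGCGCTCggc
Mt2: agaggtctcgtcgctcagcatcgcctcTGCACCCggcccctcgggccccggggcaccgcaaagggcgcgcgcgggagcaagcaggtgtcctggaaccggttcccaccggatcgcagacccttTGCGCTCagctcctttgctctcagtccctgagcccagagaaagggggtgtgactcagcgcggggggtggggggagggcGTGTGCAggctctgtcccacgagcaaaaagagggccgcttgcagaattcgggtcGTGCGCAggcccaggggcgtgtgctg

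Genes that respond to glucocorticoids followed the same arrays. Of 12 measured members, 11 lay above control, with a median of 0.55 and of 0.07 without the 4 arrays apart. None passed, 5 had an unadjusted p under 0.05 as higher, beside 3.74% of all genes. Lpin1, a phosphatidate phosphatase gene, stood at 9.68 and 9.87 in replicates 4 and 6 and at 5.57 to 6.76 in the other arrays of the 0.5% group, against 3.97 to 5.54 in the control group. All 0.5% arrays lay above the control range, and the difference was 2.33 (SE 0.75, adjusted p = 0.507). Fkbp5, a cochaperone gene of the glucocorticoid receptor, stood at 8.14 and 8.54 in replicates 4 and 6 and at 6.20 or less in the others, against 5.69 or less in the control group. Its difference was 1.48 (SE 0.52), and 0.60 without the 4 arrays apart. Klf9, named above, differed by 0.52. The receptor gene Nr3c1 differed by 0.01 and its target Tsc22d3 by 0.01 (SE 0.23).

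The acute phase genes, which code mostly for plasma proteins that inflammation raises, were above control in 21 of 24 measured members, with a median of 0.21. None passed, 7 had an unadjusted p under 0.05 as higher and 0 as lower, beside 3.74% and 3.91% of all genes. Without the 4 arrays apart 14 lay above control with a median of 0.01. Saa1, of the serum amyloid A family, stood at 8.67, 10.58 and 12.36 in the 0.5% group, against a median of 8.67 and a highest level of 9.40 in the control group (difference 1.63, SE 0.53, adjusted p = 0.507). Saa2 differed by 2.12 (SE 0.68). Saa1 and Saa2 are near-identical in sequence, and their probes may share signal. Replicates 1, 4 and 6 of the 0.5% group were the highest for both. Steap4, a metalloreductase gene, stood at 7.58, 8.78 and 10.79 in the 0.5% group, against 7.08, 7.21 and 7.49 in the control group. Every 0.5% array lay above every control array. The difference was 1.78 (SE 0.53), and 0.92 without the 4 arrays apart. Lcn2, which encodes the iron-scavenging protein lipocalin 2, differed by 2.02 (SE 0.69), with 10.17 in replicate 6. The abundant acute phase genes Hp, Hpx, Fga, Fgb and Fgg differed by 0.01 to 0.07.

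Of the neutrophil markers, the calprotectin genes S100a8 and S100a9 were highest in the same 2 arrays. S100a8 stood at 6.36 and 7.20 and S100a9 at 6.27 and 7.25 in replicates 4 and 6 of the 0.5% group, against 4.72 or less and 5.07 or less in the control group. The dim granule enzyme gene Mpo had another order, at 2.37 and 2.97 in replicates 4 and 6 and 3.10 to 3.77 in replicates 1 to 3 of the 0.5% group, against 2.87 or less in the control group. Its difference was 0.82 (SE 0.34), and 1.02 without the 4 arrays apart. Of 11 measured neutrophil markers 7 lay above control, with a median of 0.46, and -0.07 without the 4 arrays apart. The summed level of the list, log2 of the summed signal, was 6.50 to 8.61 in the 0.5% group and 6.33 to 6.70 in the control group. Of these markers 9 were dim, among them the granule genes Camp, Ngp, Ltf and Elane at 4.39 or less in all 12 arrays. Their part in the acute phase values was not tested.

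Immediate early genes, which code for transcription factors and regulators made within minutes of a stimulus, were above control in 16 of 18 measured members, with a median of 0.59. Of those 18, 9 were dim and none passed. Junb, an AP-1 subunit gene, stood at 7.63 and 6.82 in replicates 4 and 6 and at 5.09 to 6.23 in the others of the 0.5% group, against 4.39 to 5.56 in the control group (difference 0.95, SE 0.34, adjusted p = 0.555). Nr4a1, an orphan nuclear receptor gene, differed by 0.81 (SE 0.26), Ier3 by 1.30 (SE 0.39) and Myc by 1.44 (SE 0.54), all dim. The list median was 0.07 without the 4 arrays apart, and 12 members lay above control.

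Among p53 targets and Gadd45 genes, 8 of 10 lay above control with a median of 0.45 (0.13 without the 4 arrays). Btg2, an antiproliferative gene, stood at 8.83 and 7.80 in replicates 4 and 6 of the 0.5% group and lower in its others, with a lowest level of 3.77, against 5.03 or less in the control group. Its difference was 1.34 (SE 0.58), and 0.15 without the 4 arrays. Gadd45g, a stress gene, spread from 5.15 to 9.12 in the 0.5% group and from 4.47 to 8.32 in the control group (difference 1.81, SE 0.78). Of 15 genes of NF-kB and inflammatory cytokines, 10 lay above control and 11 were dim. The neutrophil chemokine gene Cxcl1 stood at 11.10, 8.72 and 11.01 in replicates 4, 5 and 6 and at 6.00 to 6.62 in the other 3 of the 0.5% group, against 5.29 to 6.82 in the control group (difference 2.03, SE 0.76, adjusted p = 0.563). The cytokine genes Tnf and Il6 were dim, with differences of -0.27 and -0.11.

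**Figure D3:**
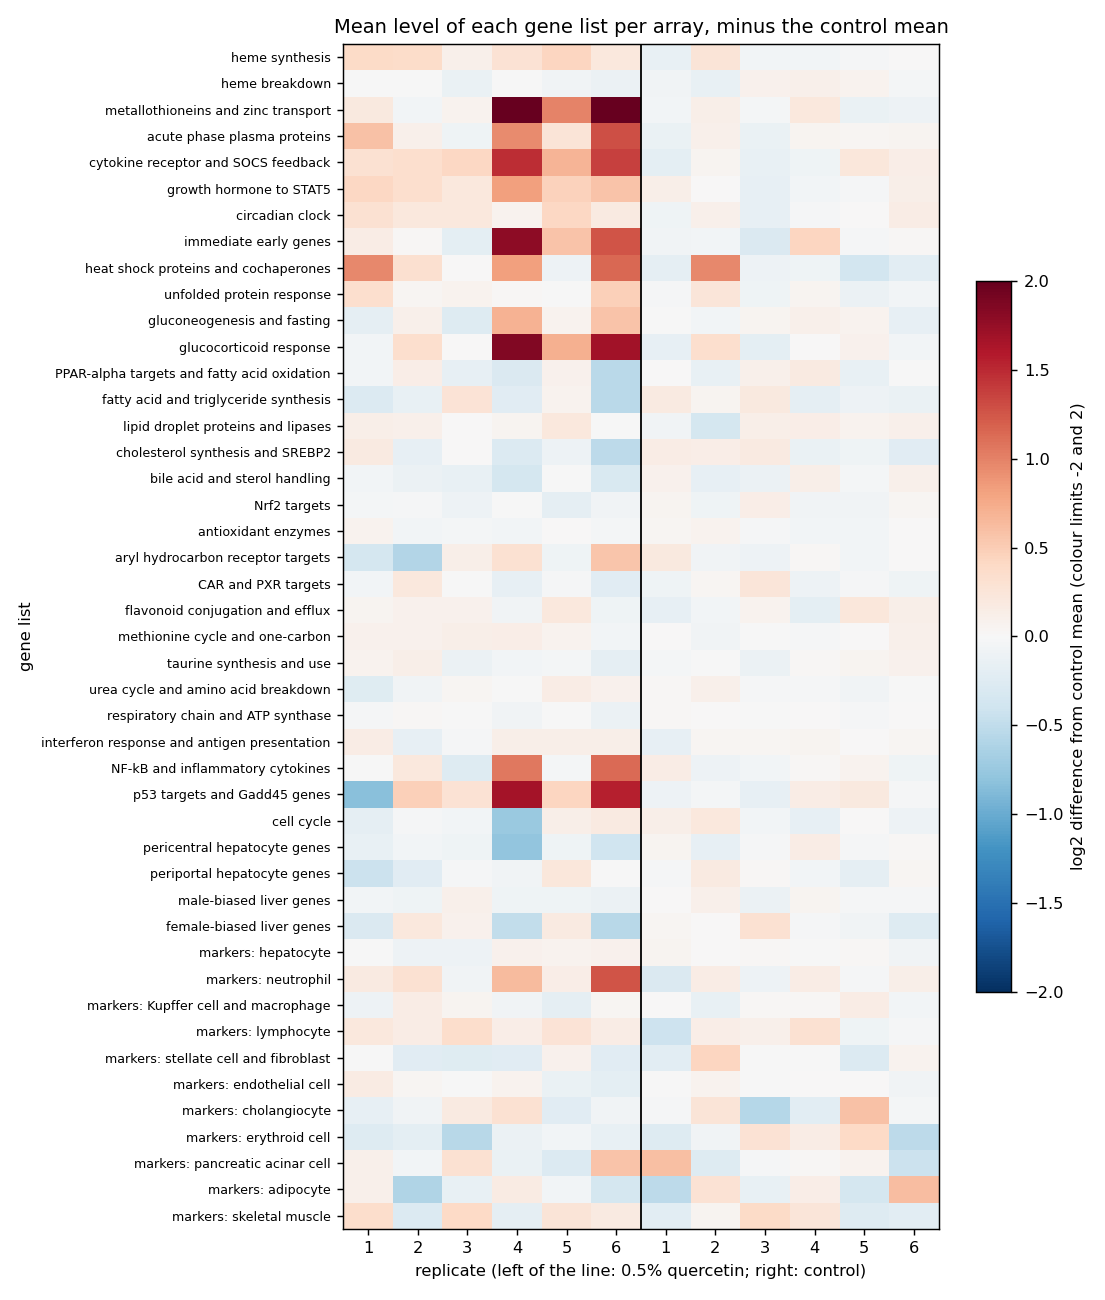
Mean level of each of 45 gene lists in each array, minus the mean of the 6 control arrays (colour, log2, limits -2 and 2). Columns left of the line are replicates 1 to 6 of the 0.5% group and columns right of it those of the control group. The metallothionein list reaches 2.06 and 2.18 in replicates 4 and 6 of the 0.5% group, and the heat shock list reaches 0.96 in control replicate 2.

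Heat shock proteins and cochaperones, which fold proteins in the cytosol, were above control in 17 of 19 measured members, with a median of 0.56. None passed, 8 had an unadjusted p under 0.05 as higher and 0 as lower, beside 3.74% and 3.91% of all genes. Hspb8, a small heat shock protein gene, stood at 8.27, 8.86 and 9.83 in the 0.5% group, against 7.83, 7.96 and 8.53 in the control group (difference 0.99, SE 0.26, adjusted p = 0.445). Hspa8, the constitutive Hsp70 gene, stood at 11.10, 11.57 and 12.29 in the 0.5% group, against 10.58, 10.85 and 11.58 in the control group (difference 0.72, SE 0.22). Hsph1, of the Hsp110 family, differed by 1.14 (SE 0.42) and the cochaperone gene Stip1 by 0.60 (SE 0.23). In all 4 genes the groups overlapped through control replicate 2, which was the highest control array. The arrays of the 0.5% group were not alike: the list mean minus the control mean was 0.96, 0.83 and 1.15 in replicates 1, 4 and 6, and 0.33, 0.01 and -0.10 in replicates 2, 3 and 5. The list median without the 4 arrays apart was 0.21, with 15 of 19 members above control.

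The unfolded protein response, which acts on folding in the endoplasmic reticulum, was above control in 17 of 24 members, with a median of 0.17 and of 0.12 without the 4 arrays. Xbp1, its main transcription factor gene, stood at 10.48, 10.89 and 11.64 in the 0.5% group, against 10.09, 10.28 and 10.63 in the control group (difference 0.72, SE 0.21, adjusted p = 0.5). Creld2 differed by 1.05 (SE 0.38) and Syvn1, a ubiquitin ligase gene of protein degradation from the endoplasmic reticulum, by 0.55 (SE 0.19). Its partner gene Sel1l differed by 0.30 (SE 0.12). Other bright probe sets of Sel1l differed by 0.21 (SE 0.14), 0.14 (SE 0.10) and -0.12 (SE 0.11). The one with the largest variance, at a mean level of 4.63, differed by -0.005. The factors Atf4 and Ddit3 of another branch differed by -0.19 and -0.15.

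Lipid synthesis genes lay below control. Of 23 measured genes of fatty acid and triglyceride synthesis, 18 were below and 5 above, with a median of -0.30, and none passed. Srebf1, the gene of the transcription factor SREBP1 that drives this pathway, stood at 6.17, 7.26 and 8.23 in the 0.5% group, against 7.77, 8.28 and 8.44 in the control group. Replicates 1, 4 and 6 of the 0.5% group were the low ones. The difference was -0.96 (SE 0.34, adjusted p = 0.554), and -0.55 without the 4 arrays apart. Elovl5, a fatty acid elongase gene, stood at 10.96, 11.57 and 11.84 in the 0.5% group, against 11.77, 11.84 and 11.95 in the control group (difference -0.36, SE 0.12). Lpin1 and Lpin2, whose products make diacylglycerol, went the other way, at 2.33 and 0.51 (SE 0.18). Other bright probe sets of Lpin2 differed by 0.29 (SE 0.23) and -0.20 (SE 0.25). The list median without the 4 arrays apart was -0.11, and 8 members lay above control.

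Among 11 genes of lipid droplets and lipases 8 lay above control, with a median of 0.09. G0s2, an inhibitor of adipose triglyceride lipase, stood at 5.79 and 5.76 in replicates 4 and 6 and at 9.62 to 10.45 in the others of the 0.5% group, against 9.10 to 10.69 in the control group. Its difference was -1.63 (SE 0.66, adjusted p = 0.572), and -0.25 without the 4 arrays apart. Pnpla2, the gene of that lipase, differed by 0.40 (SE 0.16). Of 19 cholesterol synthesis genes 15 lay below control, with a median of -0.17, and 10 lay above control without the 4 arrays, with a median of 0.00. Its member with the smallest p was the desaturase gene Sc5d at -0.45 (SE 0.16).

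Targets of PPAR-alpha, a nuclear receptor for fatty acids, were spread around 0. Of 32 measured, 11 lay above control with a median of -0.06, or 0.02 without the 4 arrays. The receptor gene Ppara stood at 7.14, 8.49 and 9.13 in the 0.5% group, against 8.83, 9.31 and 9.54 in the control group (difference -0.89, SE 0.27, adjusted p = 0.507). Its other 2 probe sets, also bright, differed by -0.35 (SE 0.23) and -0.26 (SE 0.18), and without the 4 arrays apart the value was -0.47. The hormone gene Fgf21 differed by -1.48 (SE 0.56), lowest in replicates 4 and 6. The gluconeogenesis and fasting list had 8 of 15 members above control and a median of 0.03. Its dim kinase gene Sik1 differed by 1.42 (SE 0.48). The bright member Foxo1, an insulin-restrained transcription factor gene, differed by 0.27 (SE 0.12). Its other bright probe sets differed by 0.07 (SE 0.16) and -0.05 (SE 0.12). The one with the largest variance, at a mean level of 1.27, differed by -0.24 (SE 0.50).

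Bile acid and sterol handling genes were below control in 19 of 22 measured members, with a median of -0.18, or -0.08 without the 4 arrays, where 3 members again lay above. None passed, 0 had an unadjusted p under 0.05 as higher and 4 as lower, beside 3.74% and 3.91% of all genes. Nr0b2, the gene of the repressor SHP, stood at 7.55, 8.30 and 9.46 in the 0.5% group, against 8.54, 9.25 and 9.55 in the control group (difference -0.76, SE 0.25, adjusted p = 0.513). Nr1h4, the bile acid receptor gene that drives it, differed by -0.38 (SE 0.14). The bile salt exporter gene Abcb11 and importer gene Slc10a1 differed by -0.22 (SE 0.09) and -0.25 (SE 0.10). The direction of Abcb11 depended on scaling, with 0.00 where arrays were not normalized to each other. Without normalization the median of all genes stood at 0.15, so a difference of this size is read against that shift.

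**Figure D4:**
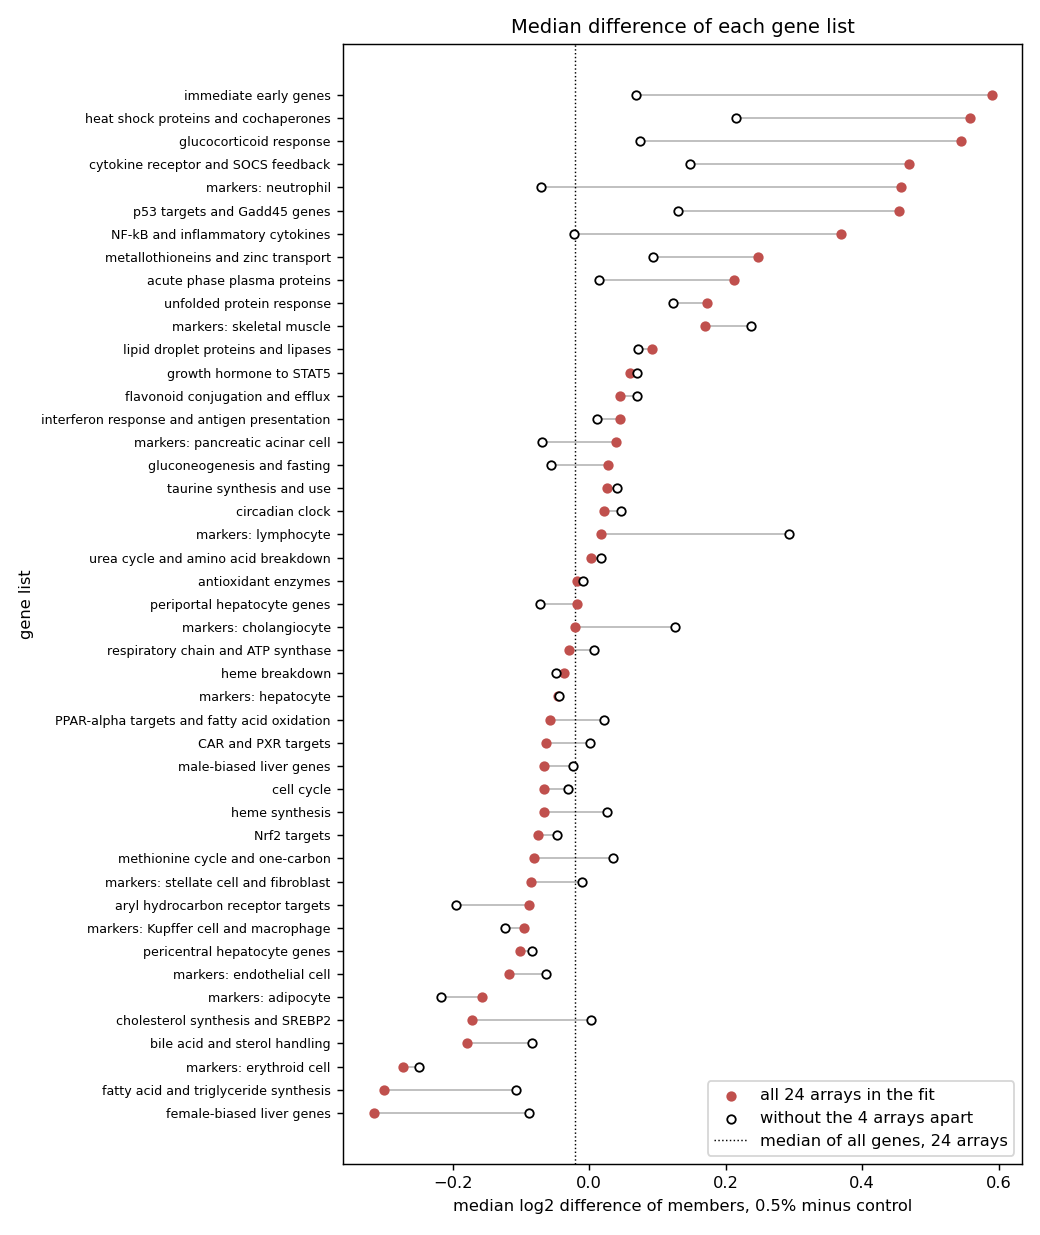
Median log2 difference (x axis, 0.5% minus control) over the members of each list. Filled points are from all 24 arrays, open circles from the fit without the 4 arrays apart, and the dotted line is the median of all genes. The heat shock list is at 0.56 and 0.21, the SOCS list at 0.47 and 0.15, and the fatty acid list at -0.30 and -0.11.

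No gene of oxidant defence or of foreign compound handling passed. Of 22 Nrf2 targets 8 lay above control, with a median of -0.08. Gclc, the catalytic subunit gene of the first enzyme of glutathione synthesis, stood at 9.67, 10.47 and 10.57 in the 0.5% group, against 10.58, 10.82 and 10.98 in the control group. All 6 arrays of the 0.5% group lay below the control range, the difference was -0.47 (SE 0.13, adjusted p = 0.5), and it was -0.33 without the 4 arrays apart. Its other probe set, also bright at a mean level of 9.43, differed by only -0.16 (SE 0.13). Nfe2l2, the gene of Nrf2 itself, differed by -0.52 (SE 0.18). Of 11 antioxidant enzyme genes 3 lay above control, with a median of -0.02 and Sod3, an extracellular superoxide dismutase gene, at -0.42 (SE 0.16). Of 8 genes tied to the aryl hydrocarbon receptor 5 were dim and 2 lay above control. Tiparp, its ADP-ribosyltransferase target, stood at 7.96 and 7.84 in replicates 4 and 6 and at 5.72 or less in the others of the 0.5% group, against 5.05 or less in the control group (difference 1.27, SE 0.43). Cyp1a1 was dim and Cyp1a2 differed by -0.11 (SE 0.13).

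Of 15 targets of the receptors CAR and PXR 5 lay above control, with a median of -0.06. Cyp2b10, the classical CAR target, was dim in its group means, at 3.48, 4.51 and 5.35 in the 0.5% group, against 2.85, 2.94 and 4.56 in the control group. Its difference was 1.14 (SE 0.48, adjusted p = 0.583). Cyp3a25 differed by -0.24 (SE 0.11). The 8 measured genes of flavonoid conjugation and efflux ranged from -0.18 for the efflux pump gene Abcc2 to 0.35 for the dim Abcb1a. Their median was 0.05, and 0 had an unadjusted p under 0.05 in limma, beside 7.65% of all genes. So short a list could hold 0 at that share.

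The circadian clock list had 11 of 20 members above control and a median of 0.02. Ciart, which encodes a clock repressor, was dim: its level was 2.02, 2.76 and 5.22 in the 0.5% group, against 0.59, 0.70 and 1.03 in the control group. The groups did not overlap (adjusted p = 0.291), and no size is given because the control arrays lay near the floor. Per1, a clock repressor gene also induced by glucocorticoids, was dim as well and differed by 1.55 (SE 0.58). Arntl, which encodes the clock activator BMAL1, stood at 3.61, 5.10 and 5.54 in the 0.5% group, against 5.43, 5.72 and 6.05 in the control group. Its low values were those of replicates 4 to 6, and the difference was -0.84 (SE 0.35, adjusted p = 0.572). Csnk1d, a clock kinase gene, differed by -0.23, and by 0.01 without normalization between arrays. Its other probe sets, all bright, differed by -0.15, -0.10, -0.04 and 0.00.

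The Ciart window is shown because its group means differed without overlap and clock genes share the E-box. Capitals mark CACGTG, a palindrome that 6.79% of all windows hold. The window lies on the minus strand at chr3:95882199-95882478 of GRCm38.p6, in RefSeq, and has 3 matches, none of them overlapping another motif searched. Of the other clock genes searched, 1 of the Per1 windows holds a match, from base -166 to base -161, and the Dbp and Klf9 windows hold none.
Ciart: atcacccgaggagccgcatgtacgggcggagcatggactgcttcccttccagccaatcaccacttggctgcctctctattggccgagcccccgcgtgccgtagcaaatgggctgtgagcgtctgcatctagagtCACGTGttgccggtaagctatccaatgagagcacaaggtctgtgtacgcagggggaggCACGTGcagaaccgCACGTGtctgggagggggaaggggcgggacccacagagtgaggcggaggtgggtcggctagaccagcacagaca

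In central metabolism no gene passed. Of 27 respiratory chain and ATP synthase genes, differences ran from -0.14 to 0.13, with a median of -0.03. In limma 0 had an unadjusted p under 0.05, beside 7.65% of all genes. Of 14 genes of the urea cycle and amino acid breakdown 8 lay above control, with a median of 0.00. Hal, which starts histidine breakdown, stood at 7.66, 8.20 and 8.30 in the 0.5% group, against 8.37, 8.53 and 8.62 in the control group. The groups did not overlap (difference -0.44, SE 0.15, adjusted p = 0.521). Of 16 genes of the methionine cycle and one-carbon metabolism 5 lay above control, Mtrr among them. Of 5 taurine genes 3 lay above, and the taurine transporter gene Slc6a6 differed by -0.43 (SE 0.17).

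Zonal and sex-biased genes gave no shared direction. Of 9 pericentral genes 4 lay above control, with a median of -0.10, where Tbx3 was the lowest and Glul and Cyp2e1, defining genes of that zone, differed by 0.00 and 0.03. Of 6 periportal genes 3 lay above. Hal and the cadherin gene Cdh1 (-0.29, SE 0.13) were the members at an unadjusted p under 0.05 in limma, beside 7.65% of all genes. Of 8 male-biased genes 3 lay above control, and Cyp2u1, a cytochrome P450 gene, differed by -0.50 (SE 0.19). Of 5 measured female-biased genes 2 lay above control and 3 were dim. Of 13 cell cycle genes 11 were dim, with a median of -0.07.

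No marker of another cell type passed. Of 11 Kupffer cell and macrophage markers 3 lay above control, with a median of -0.10 and summed levels of 10.19 to 10.35 in the 0.5% group and 10.27 to 10.44 in the control group. Cd5l, a macrophage-secreted protein gene, differed by -0.25 (SE 0.12). Of 12 stellate cell and fibroblast markers 2 lay above control, and the matrix gene Dcn differed by -0.26 (SE 0.10). Of 9 endothelial markers 3 lay above, with the dim Lyve1, a hyaluronan receptor gene, at 0.85 (SE 0.32). Of 11 lymphocyte markers 6 lay above and 10 were dim, among them Gzma at 0.84 and Cd79b at 0.60. All 5 cholangiocyte markers were dim, and so were all 4 of skeletal muscle, 5 of 6 of pancreatic acinar cells, 3 of 4 of adipocytes and 3 of 4 of erythroid cells. Of these, the keratin gene Krt19 of cholangiocytes differed by 0.87 (SE 0.41). The muscle gene Ckm differed by 0.78 (SE 0.33), and by -0.11 over the mean of its probe sets. Of 17 interferon and antigen presentation genes 10 lay above control, with a median of 0.04. In limma 0 had an unadjusted p under 0.05, beside 7.65% of all genes.

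Arid5b and Alas1 had higher means at 0.5% than at either other dose. Arid5b averaged 6.07 ± 0.32 at 0.1%, 7.64 ± 0.39 at 0.5% and 6.46 ± 0.40 at 1.0% (log2, SD, n = 6 each), with 6.33 ± 0.22 in the control group. Against 1.0% it was higher by 1.19 (SE 0.20, adjusted p = 0.0326) and against 0.1% by 1.58 (SE 0.20, adjusted p = 0.00113). Alas1 averaged 7.31 ± 0.35 at 0.1%, 10.10 ± 0.79 at 0.5% and 8.05 ± 0.74 at 1.0%, with 7.84 ± 0.80 in the control group. Its difference from 1.0% was 2.04 (SE 0.39, adjusted p = 0.0836) and from 0.1% it was higher by 2.79 (SE 0.39, adjusted p = 0.00236). Cish averaged 5.58 at 1.0%, where replicates 1 and 2 lay at the 0.5% level and the others below it. These comparisons share the 0.5% arrays, so they are not independent of the comparison with control.

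Against 1.0% quercetin 4 of 18193 genes passed (0.022%), Arid5b as higher and 3 as lower in the 0.5% group. Csad, whose product makes hypotaurine, averaged 6.29 ± 0.30 at 0.5% and 7.29 ± 0.39 at 1.0% (difference -0.996, SE 0.15, adjusted p = 0.0268). At 0.5% it differed from control by 0.03 (SE 0.15). Saal1 was lower at 0.5% (5.26 ± 0.08) than at 1.0% (5.75 ± 0.12; difference -0.49, SE 0.08, adjusted p = 0.0326), and the dim Ppfia4 was the other one. With the 4 arrays left out 0 genes passed in limma, and 1155 had an unadjusted p under 0.05.

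Against 0.1% quercetin 39 genes passed (0.214%), 26 as higher (0.143%) and 13 as lower (0.0715%) in the 0.5% group. Some of the 39 lay near control at 0.5% and away from it at 0.1%. Klf10 averaged 5.53 at 0.1%, 6.58 at 0.5% and 6.58 in the control group, and Cry1 averaged 5.38, 4.47 and 4.55. The genes named next also differed in mean from control, in the same direction. Klf9 was higher by 0.86 (SE 0.12, adjusted p = 0.00236), at 9.99 ± 0.30 at 0.5% and 9.13 ± 0.09 at 0.1%. Tnfaip2 was lower, with a difference of -1.56 (SE 0.24, adjusted p = 0.00679), and so was Ppp1r3c at -1.04 (SE 0.20, adjusted p = 0.0303). Onecut1 (2.67, SE 0.50), Socs2 (2.98, SE 0.61), Mcm10 (1.16, SE 0.20), Hspa8 (1.09, SE 0.22) and Lpin2 (1.05, SE 0.18) were also among those higher than at 0.1%. None of these 5 passed against control, where they had differences of 1.95, 1.94, 0.88, 0.72 and 0.51. With the 4 arrays left out 10 genes passed, 8 as higher and 2 as lower, and 9 of them were among the 39.

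**Figure D5:**
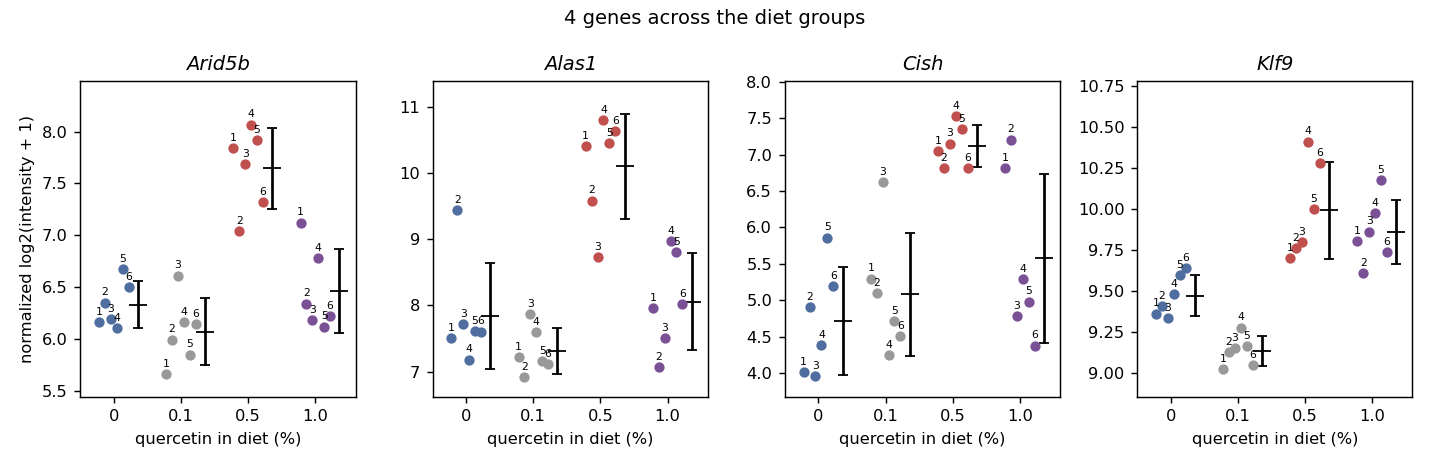
Level of 4 genes (y axis, normalized log2(intensity + 1)) by quercetin in the diet (x axis, %, with 0 for control). Points are arrays with replicate numbers, and bars are the mean ± SD (n = 6). Arid5b and Alas1 are highest at 0.5%, and Klf9 is similar at 0.5% and 1.0%, at 9.99 and 9.86.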

How the data were processed

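The authors deposited linear intensity values, 45101 probe sets by 24 arrays, in 1 table. How the authors summarised probes or corrected background is not given in the sources used. Values were taken as log2(intensity + 1) and quantile-normalized between arrays. Adding 1 shrinks differences only between intensities near the floor. Calls of dim genes depended on the amount added, since Carlr lost its call with a pseudocount of 16. Probe sets with 1 symbol in the platform annotation (34945) were used, 932 with several and 9211 not listed were left out, as were 64 control probe sets. The limma 3.58.1 fit (R 4.3.3, eBayes, two-sided, Benjamini-Hochberg) had 4 group means, and its code was run on simulated arrays. Those had independent noise with 1 spread per gene, and no arrays apart or cages, so the run does not bear on these. The 45 lists hold 603 genes, of which 549 were measured. The members, lists and named genes were chosen with earlier results of these data known. Named were all genes that passed, the next 12 bright genes in each direction without clone names, and up to 4 members of each list by p under 0.05. Other genes named from the lists were chosen after their values were seen. Of these, 1 gene is not reported here. Of 95 named genes 76 had a RefSeq promoter. Replicate numbers did not pair arrays (correlations of deviations -0.02 to 0.04), no 2 columns were identical, and arrays correlated at 0.901 to 0.933. Per the labels, each array holds the RNA of 1 mouse.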

Additional observations from a re-analysis of the deposited data

Results flagged for a closer look

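In 13 of 190 groups of 6 arrays tested, 1 array lay far from the others for a gene named in the report (Dixon's test at 95%), and chance flags about 1 in 20 groups. In control replicate 2 the highest value was 9.44 for Alas1, 8.53 for Hspb8, 11.58 for Hspa8, 9.14 for Hsph1 and 7.21 for Stip1, each far above the other control arrays. Without control replicate 2, Alas1 and Arid5b passed in limma and Carlr did not. Control replicate 4 was far below the others for the kinase gene Plk3, at 1.37, and far above them for Myc, at 3.91. Control replicate 3 was high for Cyp2b10 at 4.56, and control replicate 1 was low for the B cell gene Cd79b at 1.29. In the 0.5% group, replicate 6 was high for Ppp1r3c at 9.77 and low for Gclc at 9.67, replicate 2 was low for Gpr146 at 6.52, and replicate 5 was low for the macrophage gene Cd5l at 6.70.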

How the results depend on the processing

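Counts of genes against control (3 in the report) were 5 without normalization between arrays, 7 with arrays centred on their medians, 5 with cyclic loess, 6 with array weights, 0 in a fit of the 2 groups alone (1366 at an unadjusted p under 0.05), 1 without the 4 arrays apart and 1 with sets of 3 replicates as a random effect. Leaving out 1 array gave 0 to 6. The count was 0 when either of control replicates 1 and 4, or either of replicates 4 and 5 at 0.5%, was left out, 1 when it was control replicate 5 or 6 or replicate 1 or 4 at 0.1%, and 6 when it was replicate 6 at 0.1%. The fit without the 4 arrays and the random sets were chosen after seeing the data. Counts against 1.0% (4) were 0 without normalization, with the probe set of largest variance, with the 2 groups alone, with array weights, without the 4 arrays and with random sets, 1 with arrays centred or with the mean of probe sets, and 2 with trend and robust options; leaving out 1 array gave 0 to 8. Counts against 0.1% (39) were 21 without normalization or with the mean of probe sets, 100 with a pseudocount of 16, 134 among genes with a mean of at least 5, 4 with the probe set of largest variance, 7 with the 2 groups alone, 91 with trend and robust options, 74 with replicates 1 to 3 and 4 to 6 as a fixed term, 10 without the 4 arrays and 7 with random sets; leaving out 1 array gave 4 to 59. With the replicate number as a replicate block 0 genes passed against control (1403 at an unadjusted p under 0.05), 0 against 1.0% and 21 against 0.1%; the numbers do not pair the mice. The reversed differences were Csnk1d 0.0068 and Abcb11 0.001 without normalization, Ckm -0.11 with the mean of probe sets, and with the probe set of largest variance Ckm -0.99, Tnfaip2 0.52, Pdcd2l 0.0108, Sel1l -0.005 and Foxo1 -0.24. With the largest variance, each value is that of another, dim probe set of the gene, at a mean level of 1.27 (Foxo1) to 4.82 (Pdcd2l). Without normalization the median of all genes stood at 0.15, above both values of that setting. Why probe sets of a gene differ was not tested. Over all settings, 3516 values of single named genes kept direction and side of the threshold, 49 lost and 13 gained a call, and 1652 list medians moved by less than the spread between arrays, while 55 moved by more.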
